A study of Mus musculus with 6 samples.

Results

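The genes described here are those gained in every enhancer-repressed library of a series labelled as C2C12 cells, mouse myoblasts grown as a line, which form myotubes in low serum. They were selected on measured TPM values (transcript abundance, as length-corrected counts that sum to 1000000 in each library). A member had at least 1 TPM in all 3 dCas9-KRAB-En5 libraries, and the lowest of these was at least 2 times the highest of the 3 dCas9-KRAB libraries. Of 23231 genes listed, 153 met these values (0.659% of the genes listed). 7 of these were left out by name as parts of other gene families (Ccl3, Cxcl2, Itgb4, Itgb7, Ramp3, Rps10 and Spp1), which left 146 members. Because the same values chose the members, their levels and fold changes are given as a description, without a test.

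dCas9-KRAB is a Cas9 that binds DNA without cutting it, fused to a repressor domain. The dCas9-KRAB cells carried this fusion and no enhancer guide, and the dCas9-KRAB-En5 cells carried it with guides to En5, an enhancer of Myog, the transcription factor that drives muscle differentiation. Both groups received lentivirus (multiplicity of infection 100), were selected with 2 µg/ml puromycin and kept in 2% horse serum, and RNA was taken on day 5. The labels give 3 replicates of each group but do not say that they came from separate cultures, so p-values measure the spread between these libraries, which may be technical. Myog was at 1065, 1224 and 1118 TPM in the dCas9-KRAB libraries and at 0.38, 0 and 0 TPM in the dCas9-KRAB-En5 libraries. Myog, the gene targeted through its enhancer, thus followed the labels.

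The 6 libraries held 31831093 to 73988425 counts. dCas9-KRAB-En5 replicate 3 stood apart, with 13991 genes listed against 17084 to 19395 in the other libraries, and with 24.9% of its counts in ribosomal protein genes against 10.9% to 19.9%. The labelled cell type was checked with marker lists. The 10 muscle fiber markers summed to 14146 to 15947 TPM in dCas9-KRAB and to 7.49 to 16.3 TPM in dCas9-KRAB-En5, and the 10 myoblast markers to 579 to 2110 and 86.6 to 366 TPM. The 12 macrophage markers summed to 3023 to 3235 TPM in dCas9-KRAB and to 4130 to 6914 TPM in dCas9-KRAB-En5. Of these, 6 were at 10 TPM or more in all 6 libraries, while Marco and Mrc1 were at 0. The 8 osteoclast markers summed to 3.53 to 4.86 TPM and 8.95 to 38.0 TPM, with Calcr at 0. This sum holds Acp5, a member and so chosen for being higher, at 0.51 to 1.74 and 4.24 to 18.8 TPM. Single genes of the macrophage list did not all move with its sum. Adgre1 was at 7.62 to 17.7 TPM in dCas9-KRAB and 29.6 to 135 TPM in dCas9-KRAB-En5, and Cd14 at 601 to 699 and 525 to 3398 TPM. Fcgr1 was lower, at 97.3 to 161 and 27.9 to 53.6 TPM. Spi1, at 145 to 283 and 175 to 213 TPM, and Cx3cr1, at 12.8 to 32.5 and 9.59 to 40.7 TPM, overlapped between the groups. Csf1r, the receptor of macrophage growth factor, was at 132 to 443 TPM in dCas9-KRAB and 186 to 668 TPM in dCas9-KRAB-En5, and Tyrobp, a myeloid adaptor, at 1048 to 1727 and 1221 to 2547 TPM. Myod1, the factor that marks myoblasts, was at 33.8 to 111 TPM in dCas9-KRAB and at most 0.08 TPM in dCas9-KRAB-En5. These levels go against the labelled cell type, since all 6 libraries held macrophage RNA and the dCas9-KRAB-En5 libraries held almost no muscle RNA. Whether the cultures or libraries held cells other than those labelled was not tested, and a gain below is a difference between libraries as labelled, in which a change within cells and a change of cell type cannot be told apart. In bulk RNA, fewer cells of a type and less RNA per cell cannot be told apart.

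Several of the members belong to pathways that cells switch on quickly and then restrain. Suppressors of cytokine signalling and dual-specificity phosphatases are made in response to the signals they turn off, and prostaglandins and leukotrienes are lipid signals made from arachidonic acid in macrophages and other cells. Arrestin-like proteins such as Txnip are made when glucose is plentiful and limit its uptake. Muscle cells and macrophages both use these systems.

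The members ranged from rare to abundant transcripts. The lowest dCas9-KRAB-En5 TPM was 100 or more in 12 members, 10 or more in 46 and under 2 in 33, and 7 members had fewer than 10 counts in a dCas9-KRAB-En5 library. The median ratio of the lowest dCas9-KRAB-En5 TPM to the highest dCas9-KRAB TPM was 2.79. It was at least 3 in 65 members, at least 5 in 27 and at least 10 in 6. Just inside the fold of 2 lay Neurl1b, 2900093K20Rik and Tcn2 with ratios of 2.01, and just outside it lay Amz1 at 1.97, Hyal1 at 1.97 and AV356131 at 1.98. Just inside the limit of 1 TPM lay Gm26268 at 1.04, Gm43520 at 1.07 and Magi1 at 1.12, and just outside it lay Cadps at 0.96 and Dtwd2 at 0.99 TPM.

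**Figure D1:**
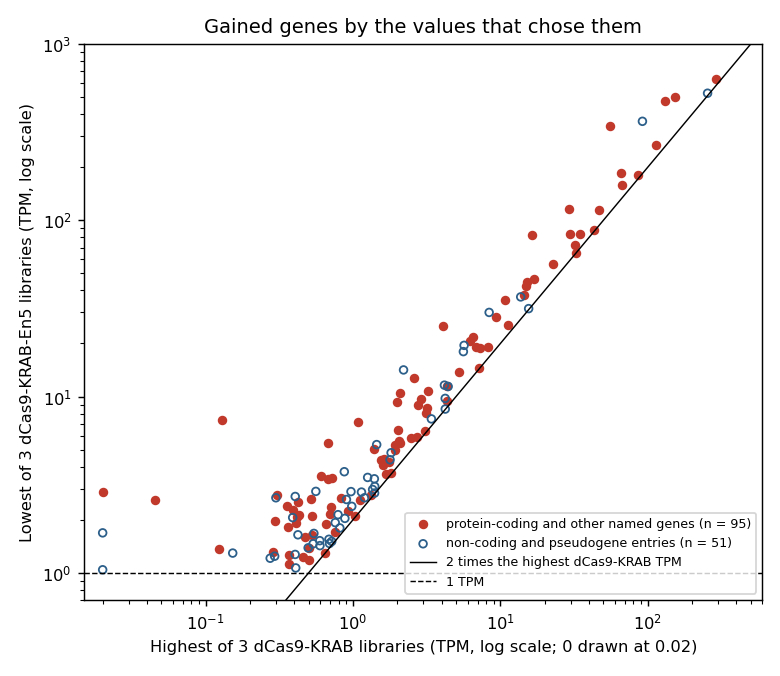
Each point is a member, placed by its highest TPM in the 3 dCas9-KRAB libraries (x axis, log scale, 0 drawn at 0.02) and its lowest TPM in the 3 dCas9-KRAB-En5 libraries (y axis, log scale). The solid line is the fold of 2 and the dashed line is 1 TPM. All 146 members lie above both lines because these lines chose them, and most lie close to the fold line, with Tmem26, Urah and Spink5 far above it.

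In edgeR's quasi-likelihood fit, 141 of the 146 members passed the filter on low counts. Their median log2 fold change was 2.97 (range 1.29 to 10.76), against 0.08 over all 14378 genes tested. Past both cutoffs (adjusted p no higher than 0.01, log2 fold change of 1 or more in size) were 62 members, beside 219 genes higher in all (1.52%) and 671 lower (4.67%). The fit with the replicate block had 567 genes higher (3.94%), and 82 members were past the cutoffs. DESeq2 placed 112 members past them. These counts come from the contrast that chose the members and only describe them.

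By what they encode, 94 members (64.4%) were protein-coding, against 86.9% of the 8507 genes with at least 1 TPM in all 3 dCas9-KRAB-En5 libraries. The others were mostly antisense RNAs (14), processed pseudogenes (10) and long intergenic RNAs (8), with 4 small nucleolar RNAs and 3 microRNA entries. The protein-coding members had a median GC content of 54.6% and a median exon length of 2919 bases, against 52.2% and 3847 bases for the protein-coding genes of that wider set. They were spread over the chromosomes, with 16 members on chromosome 11, 13 on chromosome 17 and 1 on chromosome X.

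The members together summed to 1442, 1729 and 1763 TPM in the dCas9-KRAB libraries and to 17856, 15935 and 5602 TPM in dCas9-KRAB-En5 replicates 1, 2 and 3. Odc1, its pseudogene Gm7993 and Txnip alone made up 47.3%, 42.7% and 23.9% of the sums in dCas9-KRAB-En5.

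Genes of nutrient sensing and metabolism, 14 members, held the most abundant gains. Odc1 (chr12:17544794-17551505, plus strand), the rate-limiting enzyme of polyamine synthesis, was at 105, 131 and 118 TPM in dCas9-KRAB and at 3966, 3042 and 476 TPM in dCas9-KRAB-En5. Its log2 fold change was 4.0 (SE 0.62). The groups did not overlap, as the rule requires, and dCas9-KRAB-En5 replicate 1 was 8.33 times replicate 3. Txnip (chr3:96557957-96561883, plus strand), an arrestin-like inhibitor of thioredoxin and of glucose uptake, was at 154, 133 and 149 TPM against 1862, 1599 and 497 TPM, a log2 fold change of 2.86 (SE 0.50). Arrdc4, an arrestin-like protein of the same family, was far less abundant, at 0.12, 0.28 and 0.19 TPM against 2.21, 2.13 and 1.31 TPM. Txnip and Arrdc4 thus lay near opposite ends of the members' range of levels. Both were higher in each dCas9-KRAB-En5 library, as the rule requires.

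Pfkfb3, which makes the metabolite that activates glycolysis at phosphofructokinase, was at 1.70, 3.06 and 2.40 TPM in dCas9-KRAB and at 92.7, 131 and 6.36 TPM in dCas9-KRAB-En5. It was the metabolic member with the widest spread within the enhancer-repressed group, 20.7 times between replicates 2 and 3. Castor1, the arginine sensor upstream of mTORC1, was even across the same 3 libraries, at 37.6, 40.1 and 43.9 TPM against 4.99, 14.5 and 12.7 TPM. Urah, an enzyme of urate breakdown, was at 0.13, 0.04 and 0.13 TPM against 18.2, 8.89 and 7.32 TPM, a ratio of lowest to highest of 56.7 that rested on 5, 2 and 8 counts in dCas9-KRAB. The other members included Tcn2, which carries vitamin B12 in plasma, Cda, which deaminates cytidine, Galnt6, which starts mucin-type O-glycans, and the solute carrier family genes Slc25a23, Slc45a3 and Slc7a4. Of the 14, 9 were past both cutoffs, beside 62 of the 141 tested members and 1.52% of all genes. The median log2 fold change of the 14 was 2.87.

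Signalling feedback genes and ligands made up 13 members, of which 12 were past both cutoffs, beside 62 of the 141 tested members and 1.52% of all genes. The contrast is the one that chose them. Socs3 (chr11:117966079-117970047, minus strand), which blocks cytokine receptors that signal through STAT3, was at 15.1, 65.5 and 58.8 TPM in dCas9-KRAB and at 1109, 532 and 185 TPM in dCas9-KRAB-En5. Dusp2 and Dusp4 are nuclear phosphatases that switch off MAP kinases. Dusp2 was at 3.35, 13.3 and 15 TPM against 247, 109 and 42.3 TPM. Dusp4 was at 2.34, 10.8 and 7.33 TPM against 197, 251 and 35.4 TPM. In each of these genes dCas9-KRAB replicate 1 was the lowest control and dCas9-KRAB-En5 replicate 3 the lowest of its group. The groups did not overlap, which the rule requires of every member.

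Ndrg1, a gene known to respond to hypoxia and growth arrest, was at 22, 46.7 and 35.4 TPM in dCas9-KRAB and at 418, 693 and 115 TPM in dCas9-KRAB-En5. Inhba, the subunit of activin A, was the secreted ligand of the group, at 0.43, 0.30 and 0.22 TPM against 5.50, 2.72 and 2.14 TPM. Adora2a, an adenosine receptor that raises cyclic AMP, was the member of the group that did not pass both cutoffs, at 0.20, 1.03 and 0.53 TPM against 5.49, 2.22 and 2.10 TPM. The rest were genes of small GTPase, G protein and kinase signalling (Rasgef1b, Rgs11, Rhov, Spred3, Pik3r5), the adaptor Pid1 and the ubiquitin ligase Neurl1b. All 13 were lowest in dCas9-KRAB-En5 replicate 3, and their median ratio of replicate 1 to replicate 3 was 3.64.

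Eicosanoid and lipid genes, 9 members, covered several steps of a pathway. Pla2g5, a phospholipase that frees fatty acids from membranes, was at 10.2, 10.2 and 11.3 TPM in dCas9-KRAB and at 53.0, 70.8 and 25.6 TPM in dCas9-KRAB-En5. Ptgs2, the inducible cyclooxygenase, was at 2.75, 1.63 and 2.25 TPM against 349, 150 and 8.95 TPM. Its log2 fold change of 5.77 (SE 0.94) joined libraries that differed by 39.0 times, so that its mean of 169 ± 171 TPM (SD, n = 3) had an SD as large as itself. The fold of Ptgs2 was thus set mainly by replicates 1 and 2.

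On the leukotriene branch, Alox5ap, which presents arachidonic acid to 5-lipoxygenase, was at 109, 99.2 and 114 TPM in dCas9-KRAB and at 444, 467 and 268 TPM in dCas9-KRAB-En5. Ltb4r1, the leukotriene B4 receptor, was at 0.58, 1.46 and 2.61 TPM against 12.8, 14 and 23.6 TPM. It was highest in dCas9-KRAB-En5 replicate 3, the reverse of Ptgs2. Alox5 itself, the 5-lipoxygenase, was no member, at 15.3, 56.9 and 37.2 TPM against 53.9, 73.2 and 14.8 TPM. The fatty acid chaperones Fabp4 and Fabp5 were both members, Fabp4 at 0.67, 0.49 and 0.43 TPM against 9.77, 7.90 and 3.42 TPM.

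Immune receptors and myeloid genes made up 11 members. Clec4d and Clec4e, receptors for microbial glycolipids, lie 6523 bases apart on chromosome 6. Clec4d was at 16.5, 7.95 and 9.97 TPM in dCas9-KRAB and at 215, 82.5 and 104 TPM in dCas9-KRAB-En5. Clec4e was at 6.81, 2.79 and 3.29 TPM against 86.6, 25.3 and 19.1 TPM. In both genes replicate 1 was the highest library of each group. Cd300ld3 and Cd300ld5, myeloid receptors of the CD300 family 4361 bases apart on chromosome 11, were at 1.85 to 4.37 and 0.63 to 3.11 TPM in dCas9-KRAB and at 11.5 to 20.6 and 8.05 to 11.4 TPM in dCas9-KRAB-En5.

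The class I genes H2-Q5, H2-Q6 and H2-Q7, which lie together on chromosome 17, were even across the enhancer-repressed libraries. H2-Q6 was at 48.5, 76.8 and 85.9 TPM in dCas9-KRAB and at 180, 247 and 212 TPM in dCas9-KRAB-En5, a log2 fold change of 1.58 (SE 0.52). S100a8, a calcium-binding protein abundant in neutrophils, was uneven, at 0, 0.50 and 0.19 TPM against 5.92, 1.19 and 12.0 TPM. The 8 neutrophil markers, of which S100a8 is part, summed to 10.6 to 22.2 TPM in dCas9-KRAB and 8.94 to 16.7 TPM in dCas9-KRAB-En5, with Retnlg at 0. Acp5, the acid phosphatase of osteoclasts and macrophages, was at 1.74, 0.51 and 0.98 TPM against 18.8, 10.5 and 4.24 TPM, and Lrg1, a secreted glycoprotein, at 0.37, 1.08 and 0.90 TPM against 7.94, 7.16 and 13.6 TPM.

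Membrane, junction and cytoskeletal genes were the largest coding group, with 18 members. Fxyd5 (chr7:31032722-31042481, minus strand), a regulator of the sodium pump, had the highest floor of all members, at 247, 283 and 290 TPM in dCas9-KRAB and 967, 1140 and 635 TPM in dCas9-KRAB-En5. Cldn11, a tight junction claudin, was at 36.4, 55.5 and 51.8 TPM against 547, 664 and 341 TPM, a log2 fold change of 3.26 (SE 0.48). Tmem38b, a cation channel of the endoplasmic reticulum, was at 34.8, 21.0 and 18.3 TPM against 378, 306 and 83.6 TPM. For Fxyd5 and Cldn11 the libraries of each group lay within a factor of 2 of each other, which was not so for Tmem38b.

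Myo1e, an actin motor of adhesion sites, was at 3.06, 8.21 and 5.19 TPM in dCas9-KRAB and at 82.2, 122 and 19.2 TPM in dCas9-KRAB-En5. Layn, a hyaluronan receptor, was at 5.45, 4.94 and 6.22 TPM against 133, 131 and 20.7 TPM. Smagp, a small membrane protein of epithelial cells, was even across the enhancer-repressed libraries, at 20.4, 29.5 and 26.8 TPM against 87.3, 84.1 and 89.3 TPM. Tmem26 was at 0, 0.05 and 0 TPM, from 0, 9 and 0 counts, against 14.3, 13 and 2.60 TPM. Mcam, a cell adhesion molecule of vessels, was at 0.29, 0.18 and 0.31 TPM against 5.31, 8.86 and 2.78 TPM. The 7 endothelial markers summed to at most 0.86 TPM in any library.

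Neuropeptide and neuronal genes, 9 members, were the most even group, with median ratios of 1.11 and 1.06 for dCas9-KRAB-En5 replicates 1 and 2 over replicate 3. Cck (chr9:121489824-121495694, minus strand), a neuropeptide and gut hormone, was at 20.7, 26.5 and 29.0 TPM in dCas9-KRAB and at 116, 122 and 142 TPM in dCas9-KRAB-En5. Aplp1, a relative of the amyloid precursor, was at 1.98, 3.74 and 4.06 TPM against 25.6, 34.7 and 25.0 TPM. Fbxo2, a ubiquitin ligase part that binds glycoproteins, was at 0.40, 2.10 and 1.01 TPM against 12.2, 10.4 and 15 TPM. In these 3 genes replicate 3 was not set apart from replicates 1 and 2.

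Vgf and Ptprn, components of secretory granules, were low in all libraries, Vgf at 0.10, 0.30 and 0.11 TPM against 3.49, 2.2 and 1.97 TPM and Ptprn at 0.36, 0.35 and 0.52 TPM against 3.6, 2.61 and 3.25 TPM. Nyap1, a neuronal adaptor of phosphoinositide signalling, was the exception in evenness, at 0.52, 0.60 and 0.60 TPM against 20.7, 22.9 and 3.55 TPM. Of the 9 members, 5 were past both cutoffs, beside 62 of the 141 tested members and 1.52% of all genes. With the replicate block 8 were, beside 82 of the tested members and 3.94% of all genes. The 8 neuron and glia markers summed to 5.94 to 11.6 TPM in dCas9-KRAB and 7.18 to 55.9 TPM in dCas9-KRAB-En5, and Snap25, Syt1 and Sox10 were at 0 in all libraries.

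Proteases, inhibitors and secreted plasma proteins, 12 members, were mostly rare transcripts. Procr, the receptor of activated protein C, was the most abundant, at 2.72, 3.24 and 3.03 TPM in dCas9-KRAB and at 130, 42.0 and 10.8 TPM in dCas9-KRAB-En5. Serpinb2, an inhibitor of plasminogen activators, was at 0.42, 0.33 and 0.29 TPM against 6.19, 2.51 and 12.9 TPM. Spink5, a serine protease inhibitor of the skin, was at 0.12, 0.12 and 0.07 TPM against 18, 23.2 and 1.36 TPM. The library that was highest thus differed between these genes, replicate 1 for Procr, replicate 3 for Serpinb2 and replicate 2 for Spink5.

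Gm5483, a stefin-like protease inhibitor gene, had no count in any dCas9-KRAB library and 255, 114 and 123 counts in dCas9-KRAB-En5. It shares 50-base words with its neighbour 2010005H15Rik, another member, which lies 33356 bases away on chromosome 16. Tgm1, a crosslinking enzyme of the cornified envelope, was at 1.27, 2.09 and 1.74 TPM against 19.9, 25.4 and 5.43 TPM. Clu, F10, Mst1, Oit3, Prg4 and Prss50 completed the group, each under 10 TPM in every library. Of the 12, 7 were past both cutoffs, beside 62 of the 141 tested members and 1.52% of all genes.

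Of 5 regulators of transcription and RNA, Dbp, a PAR bZIP factor of the circadian clock, was the most abundant, at 10.4, 17.0 and 16.2 TPM in dCas9-KRAB and at 86.7, 73.9 and 46.4 TPM in dCas9-KRAB-En5. Rarb, a retinoic acid receptor, was at 0.93, 0.59 and 0.48 TPM against 7.35, 9.38 and 2.23 TPM. Pabpc1l, a poly(A)-binding protein of oocytes, was highest in dCas9-KRAB-En5 replicate 3, at 12.4 TPM, with 1.14 to 1.56 TPM in dCas9-KRAB. The other members were Tigd2 and Rnasek, and 4 further members encode proteins of little known function (Ccdc92, Gm10382, Gm37419 and Sapcd1).

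**Figure D2:**
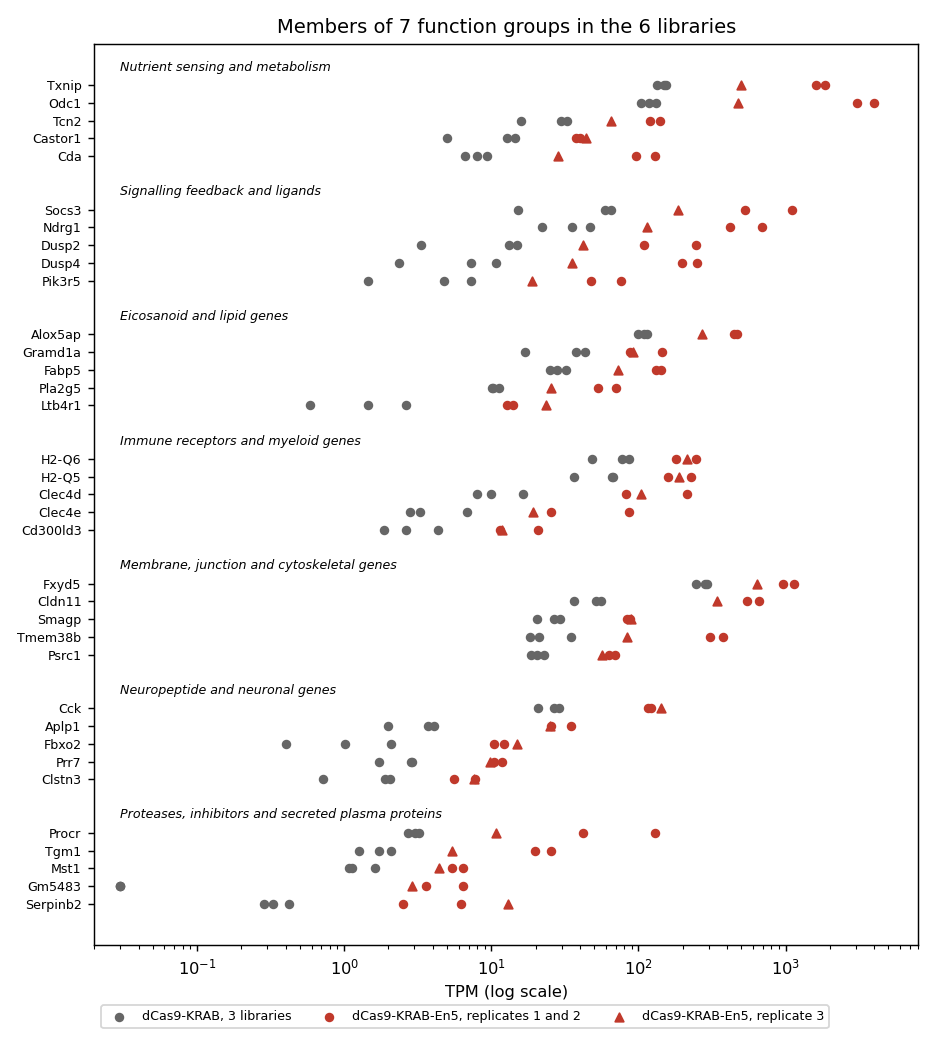
Up to 5 members of 7 function groups, those with the highest lowest dCas9-KRAB-En5 TPM, are drawn with their TPM in each of the 6 libraries (log scale). Gray points are the 3 dCas9-KRAB libraries, red circles dCas9-KRAB-En5 replicates 1 and 2 and the red triangle replicate 3, with 0 drawn at 0.03. The triangle lies nearest to the gray points for all signalling genes drawn, such as Dusp4 at 35.4 TPM, but on or above the circles for Cck at 142 TPM and Ltb4r1 at 23.6 TPM.

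The spread within the enhancer-repressed group followed dCas9-KRAB-En5 replicate 3. It was the lowest of the 3 libraries for 109 members (74.7%), close to its 75.5% share among the 8507 genes with at least 1 TPM in all 3 libraries. The highest was replicate 1 in 57 members, replicate 2 in 70 and replicate 3 in 19. The highest and lowest of the group were at least 5 times apart in 36 members (24.7%, against 22.1% of the wider set) and at most 2 times apart in 54 (37.0%, against 32.2%). Left out of the rule, this library decided membership, since 3227 genes then met the rule, while leaving out dCas9-KRAB replicate 2 gave 221 and leaving out each other library 162 to 218. A library left out can only add members.

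**Figure D3:**
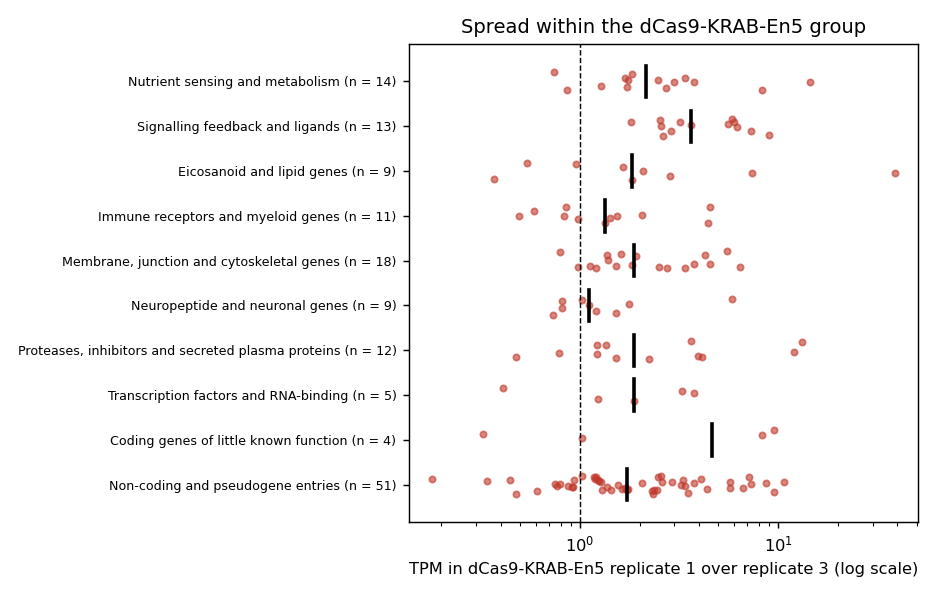
Each point is a member, placed by its TPM in dCas9-KRAB-En5 replicate 1 over replicate 3 (log scale) and by its function group, and the black bars are medians. The dashed line is a ratio of 1. The signalling members all lie to the right of the line with a median of 3.64, and the neuropeptide and neuronal members lie around it with a median of 1.11.

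Non-coding and pseudogene entries made up 51 members, of which 46 were tested. Past both cutoffs were 7 of these, beside 62 of the 141 tested members and 1.52% of all genes. With the replicate block 13 were, beside 82 of the tested members and 3.94% of all genes. The most abundant of these entries were processed pseudogenes, gene copies that share sequence with their parent. Gm7993 (chr5:95974240-95975623, plus strand) was at 77.2, 92.0 and 80.5 TPM in dCas9-KRAB and at 2610, 2160 and 364 TPM in dCas9-KRAB-En5, and it shared most sequence with Odc1. Gm9115 on chromosome X and Gm17709 on chromosome 8 also did. Their log2 fold changes of 3.96 (SE 0.59), 3.95 (SE 0.54) and 4.14 (SE 0.59) lay within 1 SE of that of Odc1. Of the 50-base words of Odc1, 24.3% occurred in other annotated genes. The stretch below is the first 50-base word of the longest open reading frame of Odc1 (bases 9 to 58 of it) that all 3 pseudogenes hold, and it is shown since these letters do not tell the 4 genes apart. In total 127 such words were found.
Odc1, Gm7993, Gm9115 and Gm17709: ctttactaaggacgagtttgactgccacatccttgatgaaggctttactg

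Gm6166 stood to Fabp5 as these did to Odc1. It was at 208, 203 and 255 TPM in dCas9-KRAB and at 1084, 1101 and 526 TPM in dCas9-KRAB-En5, above Fabp5 at 28.2, 24.9 and 32.3 TPM against 133, 143 and 72.2 TPM. Counts went the other way, with 2725, 3324 and 5161 for Fabp5 and 2304, 3106 and 4663 for Gm6166 in dCas9-KRAB. In dCas9-KRAB-En5 they were 10014, 8647 and 5895 for Fabp5 and 9392, 7635 and 4920 for Gm6166. TPM corrects for length, and the exons span 3567 bases in Fabp5 and 409 in Gm6166. Their log2 fold changes were 1.80 (SE 0.43) and 1.82 (SE 0.44). Of the 50-base words of Gm6166, 51.1% were found in Fabp5, among them bases 10 to 59 of the open reading frame of Fabp5, shown for the same reason.
Fabp5 and Gm6166: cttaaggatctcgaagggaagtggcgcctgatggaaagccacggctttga
Whether the reads came from the parent genes or the copies was not tested, so the levels of these 6 genes are uncertain.

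**Figure D4:**
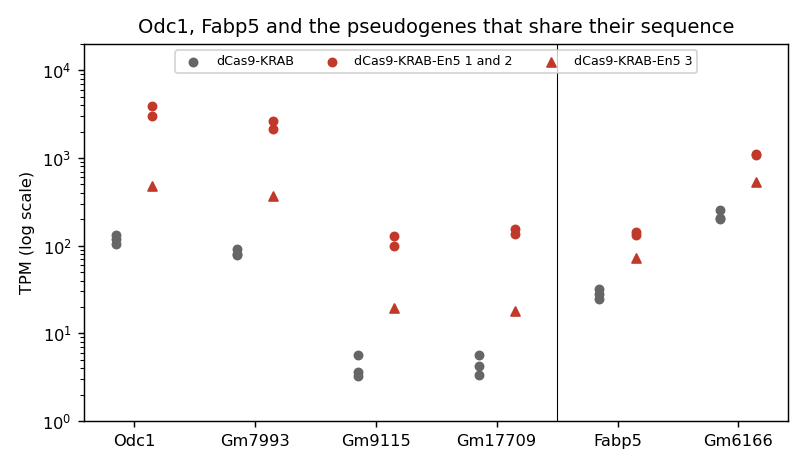
TPM (log scale) of Odc1 with its 3 pseudogenes and of Fabp5 with Gm6166 in each library, gray for dCas9-KRAB, red circles for dCas9-KRAB-En5 replicates 1 and 2 and red triangles for replicate 3. The triangle of Odc1 at 476 TPM lies far below its circles, as do those of its pseudogenes. Gm6166, with exons of 409 bases against 3567, lies above Fabp5 in TPM in every library, though not in counts.

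Sequence sharing went further. In all, 24 members shared more than 20% of their 50-base words with other annotated genes and 94 shared none. Among the former were Cd300ld3 (82.1%) and Cd300ld5 (100% with its relatives), the H2-Q trio (26.4% to 36.4%), the lincRNA pair Gm10825 and Gm26581 (85.6%) and pseudogenes such as Gm6652, which shared 70.5% with Sord. Their separate values are uncertain to that extent.

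Members also overlapped exons of other genes, 11 on the same strand and 35 on the opposite strand, 45 members in all. How strand was treated in the counting is not given in the sources used here, so reads of such pairs cannot be told apart with certainty. In 15 of the 45 a partner had a higher mean TPM in dCas9-KRAB-En5 than the member. Gm42793, within Spp1 on chromosome 5, was at 0.56, 0.17 and 0.14 TPM in dCas9-KRAB and at 31.1, 15.5 and 2.90 TPM in dCas9-KRAB-En5, while Spp1, which was left out by name, was at 466, 412 and 327 TPM against 25447, 19796 and 4986 TPM. Gm37419, opposite to Bcl6, a transcriptional repressor, was at 1.94, 0 and 0 TPM against 47.6, 9.83 and 4.98 TPM. Bcl6 itself was at 1.74, 4.0 and 1.66 TPM against 88.6, 84.1 and 6.07 TPM and rose past both cutoffs (log2 fold change 4.17, SE 0.72, adjusted p = 0.00321 edgeR's quasi-likelihood test, Benjamini-Hochberg).

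Other partners did not pass the cutoffs. Slpi, which holds the microRNA entry Mir7678, was at 364, 642 and 670 TPM against 2522, 876 and 2408 TPM (adjusted p = 0.0684, edgeR), while Mir7678 was at 0, 1.88 and 2.2 TPM against 134, 21.6 and 14.2 TPM from 202, 26 and 23 counts. Scly, opposite to Gm17090, was at 11.0, 25.5 and 21.8 TPM against 4.09, 7.09 and 6.37 TPM (adjusted p = 0.0508, edgeR, and 0.00988 with the replicate block, past both cutoffs). Of 26 partners tested, 20 had a log2 fold change above 0 and 2 were higher past both cutoffs, beside 1.52% of all genes. Gm15441, opposite to Txnip, was at 1.76, 1.00 and 1.43 TPM against 2.00, 1.83 and 2.66 TPM.

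The libraries were made from poly(A) RNA, and the counts of Mir7678 are not a measure of the mature microRNAs. Its mature sequences (RefSeq, GRCm38.p6, chromosome 2, minus strand) are shown to identify the entry, with the seed, bases 2 to 8, in capitals.
mmu-miR-7678-5p: uUACAAGGgcuggauaggaau
mmu-miR-7678-3p: uUUCCUUAcuuucucuuguagc

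Of the 146 members, 80 had neither an overlap nor more than 20% shared words. Among these were Socs3, Dusp2, Dusp4, Pfkfb3, Ptgs2, Cldn11, Cck and Clec4d. Odc1 was not, because of its shared words, nor were Txnip, Fxyd5, Ndrg1 and Alox5ap, because of an overlap. No overlap partner of Txnip, Fxyd5, Ndrg1 or Alox5ap was above 2.66 TPM in any library.

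Promoter sequences were read from RefSeq (GRCm38.p6), 250 bases before to 50 after each start, for 83 members with 109 windows, and set beside 32851 windows of all genes. Each motif was searched on both strands. The E-box CACGTG, bound by bHLH-ZIP factors of glucose and growth control, was in 9.17% of the members' windows and 7.15% of all windows. It was found in 10 members, among them Arrdc4, Pfkfb3, Dusp2, Cck and Ptgs2, and not in the window of Txnip, which held only the looser CANNTG. The 80-base stretches around it are shown for 4 of these genes because they span 3 of the function groups above, with CACGTG in capitals. They are chr7:68749389-68749468 (minus strand, Arrdc4), chr2:11502101-11502180 (minus, Pfkfb3), chr2:127336013-127336092 (plus, Dusp2) and chr9:121495718-121495797 (minus, Cck). The motif starts 193, 53, 109 and 66 bases before the RefSeq start.
Arrdc4: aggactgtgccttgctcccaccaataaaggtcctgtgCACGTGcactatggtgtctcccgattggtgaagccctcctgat
Pfkfb3: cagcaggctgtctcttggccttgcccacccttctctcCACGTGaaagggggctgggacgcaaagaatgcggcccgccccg
Dusp2: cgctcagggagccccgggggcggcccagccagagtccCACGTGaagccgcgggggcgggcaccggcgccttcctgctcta
Cck: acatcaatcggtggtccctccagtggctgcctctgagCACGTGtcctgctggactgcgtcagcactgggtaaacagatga

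GAGGAAGT, a core of the motif of PU.1, the myeloid factor, was in 8.26% of the members' windows and 3.20% of all windows. The 9 members that held it were Cd300ld3, Cd300ld5, Ltb4r1, S100a8, Magi1 and the non-coding entries 2900093K20Rik, Gm12708, Gm26740 and Gm26947. Cd300ld3 and Cd300ld5 are close copies, so that they are not separate cases. The 80-base stretches around it (chr11:115048474-115048553 and chr11:115037834-115037913, minus strand) were identical at 74 of 80 bases.
Cd300ld3: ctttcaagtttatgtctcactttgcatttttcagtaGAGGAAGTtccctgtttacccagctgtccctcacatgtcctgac
Cd300ld5: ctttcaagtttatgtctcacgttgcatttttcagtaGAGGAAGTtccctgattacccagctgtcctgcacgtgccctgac

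The GC box GGGCGG was in 53.2% of the members' windows against 35.7% of all, and ACGTG, which overlaps CACGTG, in 24.8% against 19.6%. The looser E-box CANNTG was in 70.6% against 72.3% and the TATA box TATAAA in 11.9% against 13.6%. The AP-1 motif TGANTCA was in 4.59% of the members' windows against 7.81% (Procr, Serpinb2 and Gm31814), and TGACTCAGC, which overlaps it, in 0.92% against 0.45% (Procr). TGACGTCA was in 1.83% against 1.79% (Clstn3 and Mcam). The NF-kB motif GGANTTTCC, the ETS motif ACCGGAAGT and TGATGCAA of ATF4 were in 0 of the 109 windows and in 1.25%, 1.10% and 0.89% of all windows. These shares describe letters in the windows and were not tested.

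The other genes of these pathways were read from 19 gene lists. Members on a list were chosen for being higher, so the counts here are of the genes that are not members. Beside them stand 1.52% of all genes higher, 4.67% lower and a median log2 fold change of 0.08. These values over all genes include the members, which were 62 of the 219 genes higher. Taking out the members also lowers the counts of higher genes among the others. Of 24 tested NF-kB targets and feedback genes, Ptgs2 and Socs3 were members. Of the 22 others, 2 were higher past both cutoffs, with a median log2 fold change of 1.16. Over the list with its members, 7 genes were higher with the replicate block against 4 without it, and 0 were lower (1 at an unadjusted p under 0.05 and 0 in DESeq2). The genes that rose were Nfkbiz, an atypical NF-kB inhibitor, at 2.42, 1.52 and 2.07 TPM against 74.2, 38.8 and 2.59 TPM (log2 fold change 3.78, SE 0.78, adjusted p = 0.00824, edgeR), and Ier3, an early response gene, at 76.5, 117 and 126 TPM against 1444, 1527 and 185 TPM (2.88, SE 0.58, adjusted p = 0.00748, edgeR). Both missed the rule only by dCas9-KRAB-En5 replicate 3.

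Of 17 eicosanoid genes, Ptgs2 and Alox5ap were members. Of the 15 others, Ptgir, the prostacyclin receptor, rose, at 0.72, 2.69 and 1.25 TPM against 21.3, 17.9 and 3.21 TPM (log2 fold change 2.84, SE 0.61, adjusted p = 0.00939, edgeR), and their median was 1.30. Tbxas1, thromboxane synthase, had a log2 fold change of -2.72 (SE 0.66, adjusted p = 0.0179, edgeR) and passed both cutoffs with the replicate block (adjusted p = 0.00372), and Ptgds, prostaglandin D synthase, had -2.40 (SE 0.63, adjusted p = 0.0234, edgeR). DESeq2 called 4 of the 17 higher and 2 lower.

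Of 25 glycolysis and hypoxia targets, Pfkfb3 and Ndrg1 were members. Of the 23 others, 0 were higher, with a median of 0.74, and Egln3, an oxygen sensor, fell (log2 fold change -4.46, SE 0.47, adjusted p = 0.000117, edgeR). Over the list, 4 were higher with the block, 5 in DESeq2 and 9 at an unadjusted p under 0.05. Of 14 osteoclast genes, Acp5 was a member, and 0 of the 13 others passed the cutoffs, with a median of 1.23. Over the list, 3 were higher and 1 was lower with the block, 5 and 1 in DESeq2, and 8 and 1 at an unadjusted p under 0.05. The lower gene was Src, a tyrosine kinase (log2 fold change -3.00, SE 0.65, adjusted p = 0.0102, edgeR, and 0.00136 with the block). Of 23 macrophage identity genes, none a member, Adgre1, which the rule leaves out by name, rose, 2 were higher with the block, and DESeq2 called 3 higher and 1 lower.

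Other lists held genes that were lower. Of 24 genes of amino acid transport and ATF4 targets, none was a member, 0 were higher and 6 were lower (Asns, Trib3, Psph, Fgf21, Gdf15 and Cth), 12 with the block, with a median log2 fold change of -2.01. At an unadjusted p under 0.05, 1 was higher and 17 were lower, and DESeq2 called 0 higher and 14 lower. Asns, asparagine synthetase, was at 225, 224 and 214 TPM in dCas9-KRAB and at 57.3, 63.0 and 24.7 TPM in dCas9-KRAB-En5 (log2 fold change -2.44, SE 0.44, adjusted p = 0.00435, edgeR). Castor1, the arginine sensor described above, is not on this list. Fabp4 and Fabp5 were members among 23 genes of lipid efflux and fatty acid handling. Their 21 list-mates had 0 higher and 2 lower (Pltp and Dgat2), with a median of -0.13. Over that list, 2 were higher and 4 lower with the block. Of 26 protease inhibitors and secreted proteases, Spink5 and Serpinb2 were members, and 5 of the 24 others were lower, 9 of the list with the block, with a median of -0.90. Beside Myo1e, the 26 other actin, podosome and migration genes had 0 higher and 3 lower (Cttn, Fscn1 and Dbn1), with a median of 0.04. Beside Adora2a, the 16 other purinergic and adenosine genes had 0 higher and 2 lower (P2ry13 and Adora1), with a median of -0.22. Beside Inhba, the 35 other growth factors and cytokines had 1 higher (Osm) and 1 lower (Gdf15), with a median of 0.20.

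A list without members had the highest median. Of 33 chromatin and transcription elongation genes, 31 had a log2 fold change above 0 and the median was 2.01, but edgeR placed 0 past both cutoffs. At an unadjusted p under 0.05, 28 were higher, the block placed 9 past the cutoffs and DESeq2 12. Kmt2a, a histone methyltransferase, was at 0.39, 1.33 and 0.52 TPM against 7.45, 9.71 and 0.90 TPM (adjusted p = 0.0168, edgeR, and 0.004 with the replicate block, past both cutoffs), and its replicate 3 lay among the dCas9-KRAB libraries. The rule asks for separation in every library, and no gene of this list met it.

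**Figure D5:**
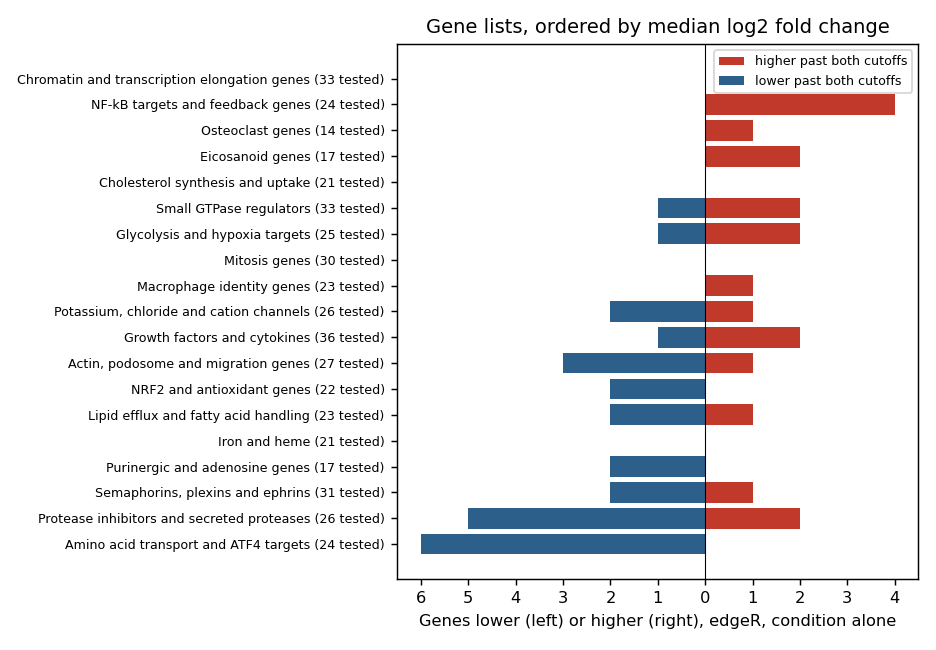
Genes of the 19 lists, members included, past both cutoffs of edgeR, higher to the right in red and lower to the left in blue, with the lists ordered from the highest median log2 fold change at the top. NF-kB targets and feedback genes have 4 higher, and amino acid transport and ATF4 targets have 6 lower. The chromatin list stands at the top by its median of 2.01 with 0 genes past the cutoffs.

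Across the 6 libraries, the genes outside the rule whose level followed the median member most closely, by Pearson correlation of log2(TPM + 1) over 14237 genes, were Spp1 (0.996), Gm37669 (0.996), Cep112it (0.995), E330020D12Rik (0.993) and Gm45311 (0.991). These 6 points share the split into 2 groups and the low dCas9-KRAB-En5 replicate 3, and the correlations are given as a description. Spp1 had met the value rule and was left out by name.

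Members that lay close together were few. Within 100 kb of each other lay 11 pairs, 5 of them of genes with shared sequence (Cd300ld3 and Cd300ld5, the H2-Q trio, and Gm5483 with 2010005H15Rik). Among the others were Clec4d with Clec4e, Tgm1 with Ltb4r1 (52035 bases apart on chromosome 14), Smagp with Galnt6 (54872 bases, chromosome 15) and Fxyd5 with Gramd1a (87645 bases, chromosome 7). In each of these pairs both genes were higher in all 3 dCas9-KRAB-En5 libraries, as the rule requires.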

How the data were processed

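RNA-Seq of 6 C2C12 libraries on day 5 was used, 3 dCas9-KRAB and 3 dCas9-KRAB-En5, grouped by their labels. The authors aligned poly(A) RNA reads to GRCm38 with HISAT2 2.2.1 (version as in the submitters' processing notes) and deposited raw counts per gene from featureCounts. The authors also deposited TPM. The annotation release and strand setting are not given in the sources used here. Genes not listed were taken as 0. Symbols were matched for 23155 of 23231 genes, and gene models were GENCODE M21.

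Members were found by the rule on TPM. The members and gene lists were chosen with earlier results of these data known, and the function groups were set by hand after the members' values had been seen. Counts were fitted with edgeR 4.0.16 in R 4.3.3 (TMM, filterByExpr with minimum count 10 and total 15, quasi-likelihood test, Benjamini-Hochberg, cutoffs 0.01 and 1, as in the study), with condition alone. DESeq2 1.42.0 and limma 3.58.1 were alternatives. Standard errors were derived from the F statistic. The fit was tested on simulated data. It recovered most changed genes at a small dispersion but only a minority at the wider dispersion of these libraries, so a gene short of the cutoffs is not shown to be unchanged. Deviations of same-numbered libraries correlated at 0.262, 0.214 and 0.290, and the replicate number was fitted as a block in an alternative fit. The labels number the replicates but do not state pairing. Counts and p-values are from condition alone unless the block or another method is named.

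Depth was 31831093 to 73988425 counts per library. Named are Myog, the 12 members with the highest lowest dCas9-KRAB-En5 TPM, the 12 with the largest ratio, those without control counts, up to 6 per function group, the genes next to each threshold, members and up to 3 others per list, and the 5 nearest patterns. Some genes that this rule or the overlaps would name are not reported here. Overlap partners and Alox5 were named after their values were seen. Shared sequence was measured as exact 50-base words among annotated transcripts.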

Additional observations from a re-analysis of the deposited data

How the results depend on the processing

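The number of members depended on the thresholds. It was 146 as reported, 283 at a fold of 1.5, 65 at a fold of 3, 67 at a minimum of 5 TPM, 348 with no minimum, 87 on TPM + 1 and 249 on TPM divided by the TMM factor (132 shared). Paired by replicate number, the rule gave 360. Leaving out each library gave 162 to 3227, with 3227 without dCas9-KRAB-En5 replicate 3 and 221 without dCas9-KRAB replicate 2. Genes higher in edgeR were 219 as reported, 967 in DESeq2, 32 in limma-trend, 1004 with no low-count filter, 1034 with GC and length offsets, 70 on total counts and 567 with the replicate block. Leaving out each library gave 6 to 1787, with 6, 20 and 23 without dCas9-KRAB replicates 1, 2 and 3, 126, 116 and 1787 without dCas9-KRAB-En5 replicates 1, 2 and 3. Members past both cutoffs were 62 as reported, 112 in DESeq2, 28 in limma-trend, 101 with the offsets and 5 to 88 when each library was left out, with 5, 12 and 13 without dCas9-KRAB replicates 1, 2 and 3. The replicate block gave 82. The cause of these shifts was not tested. For the 132 named genes in 15 fits, 0 reversed direction, 1454 values kept their side of the cutoffs, 295 lost them and 209 gained them.

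The values are limited by 3 libraries a group, by dCas9-KRAB-En5 replicate 3, which sets the lowest value of most members, by shared sequence and overlapping exons, and by marker levels of other cell types that moved with the groups. In 33 members the lowest level was under 2 TPM.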
